A study of Mus musculus with 5 samples.

Results

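The Th2 cytokine locus on mouse chromosome 11 holds the genes of IL-4, IL-13 and IL-5, with *Rad50* lying between *Il13* and *Il5* and *Kif3a* lying next to *Il4*. These 5 genes, of 11608 in the deposited gene table, were taken by name and position, together with each enriched interval of the 4 ChIP libraries in a stretch of 190 kb around them. Occupancy by RNA polymerase II phosphorylated on serine 2 of its tail was measured by ChIP-Seq in Th2 cells made in culture from splenic naïve CD4+ T cells of C57BL6 mice, whose age the labels do not give. The conditions were *Parp14*+/+, *Parp14*+/+ with PJ34, *Parp14*-/- and *Parp14*-/- with PJ34, with 1 library each, where *Parp14*-/- cells came from mice without PARP-14 and PJ34 is an inhibitor of poly(ADP-ribose) polymerases, at 10 µM in the labels and at another dose in the methods of the study. All cells were activated through CD3 and CD28 with 10 ng/ml IL-4 and an antibody against interferon-γ for 3 days and expanded with 50 U/ml IL-2 and 10 ng/ml IL-4 for 4 days. Input chromatin, a mixture of both genotypes, served in interval calling and gave no value per gene.

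IL-4, IL-13 and IL-5 are the signature cytokines of type 2 immunity: IL-4 drives Th2 differentiation and the switch of B cells to IgE, IL-13 acts on epithelium and smooth muscle, and IL-5 sustains eosinophils. In Th2 cells their genes are opened together under STAT6, which IL-4 activates, and GATA3, and a locus control region in the 3′ part of *Rad50* contacts their promoters. *Rad50*, a subunit of a DNA repair complex, and *Kif3a*, a motor of the kinesin family needed for cilia, are broadly expressed. Polymerase phosphorylated on serine 2 is the elongating form, and its density usually rises towards the 3′ end of a gene.

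The unit throughout is the height of the fragment pile-up, the number of overlapping fragments at the highest point of a region, in libraries that the authors had reduced to equal numbers of alignments. With 1 library per condition no difference had a replicate check within these ChIP-Seq data, and no test between conditions was run. The study also measured transcripts by quantitative PCR in independent experiments. It reported lower *Stat6* in splenic CD4 T cells of *Parp14*-/- mice, and that Th2 cytokine genes and *Gata3* need PARP-14 for normal expression. Each ratio carries a 95% exact binomial (Clopper-Pearson) interval computed as if heights were counts, so only counting error is in it. In a culture, fewer cells that transcribe a gene and less polymerase per cell cannot be told apart. Wherever 4 values are given, they stand for untreated *Parp14*+/+, PJ34-treated *Parp14*+/+, untreated *Parp14*-/- and PJ34-treated *Parp14*-/-, always in that sequence. *Parp14* itself had heights of 8, 11, 6.67 and 6.67, and intervals covered 22.9, 20.8, 2.69 and 3.29 kb of it. The length under intervals was thus far shorter in both *Parp14*-/- libraries, while the heights differed little, and the deleted part of the gene is not known from the labels.

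Of the T cell markers, *Cd3e*, *Cd3d*, *Cd2* and *Cd5* had an interval in all 4 libraries, *Cd4* in all but untreated *Parp14*-/- and *Cd3g* in untreated *Parp14*+/+ alone. The summed height of the 6 T cell markers found was 87.5, 125, 89 and 78.5, close between the genotypes in the untreated pair and lower in *Parp14*-/- in the treated pair. Of 5 B cell markers 1 had an interval in any library, *Cd79a*, with 38, 36, 34 and 28, while *Cd8a*, a CD8 T cell marker, had none. The summed heights of the 5 B cell markers were 55.5, 55, 51 and 45.5, and those of 3 myeloid markers found, *Cd68*, *Csf1r* and *Itgam*, were 89, 64.5, 70 and 65.5, most of it from *Cd68*. *Itgam* had 1, 4, 0 and 2, without an interval. The height of a gene can come from a region that it shares with a neighbouring gene, which was not checked for the markers. The Th1 markers *Ifng*, *Tbx21* and *Il12rb2* summed to 87, 67, 72 and 56. None of the 6 listed markers of mast cells or basophils, 2 of eosinophils and 2 of NK cells was matched to a line of the gene table. The part of other cell types in the results below was not tested.

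The libraries differed in how much of the locus lay under intervals. There were 8, 6, 4 and 5 intervals in the 190 kb, and they covered 98.9, 60.5, 38.4 and 40.4 kb. *Parp14*+/+ thus had 52.0% of the stretch under intervals against 20.2% in *Parp14*-/-, a ratio of 2.57, where the same ratio over the whole genome was 1.33. Of 2301 windows of the same length across the genome that held at least 10 kb of intervals, 17.5% had a ratio at least as high, so the locus stood above the genome as a whole but was not rare. In the treated pair the covered length was 60.5 against 40.4 kb, where the ratio over the genome was 1.26, and 752 of 2090 windows had a ratio at least as high as the locus. The interval lists of *Parp14*-/- added nothing of their own, since each of its 4 intervals overlapped one in each of the other libraries. In *Parp14*+/+ 3 of 8 intervals overlapped an interval of *Parp14*-/-, and 2 of 8 did so over at least 50% of both lengths.

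**Figure D1:**
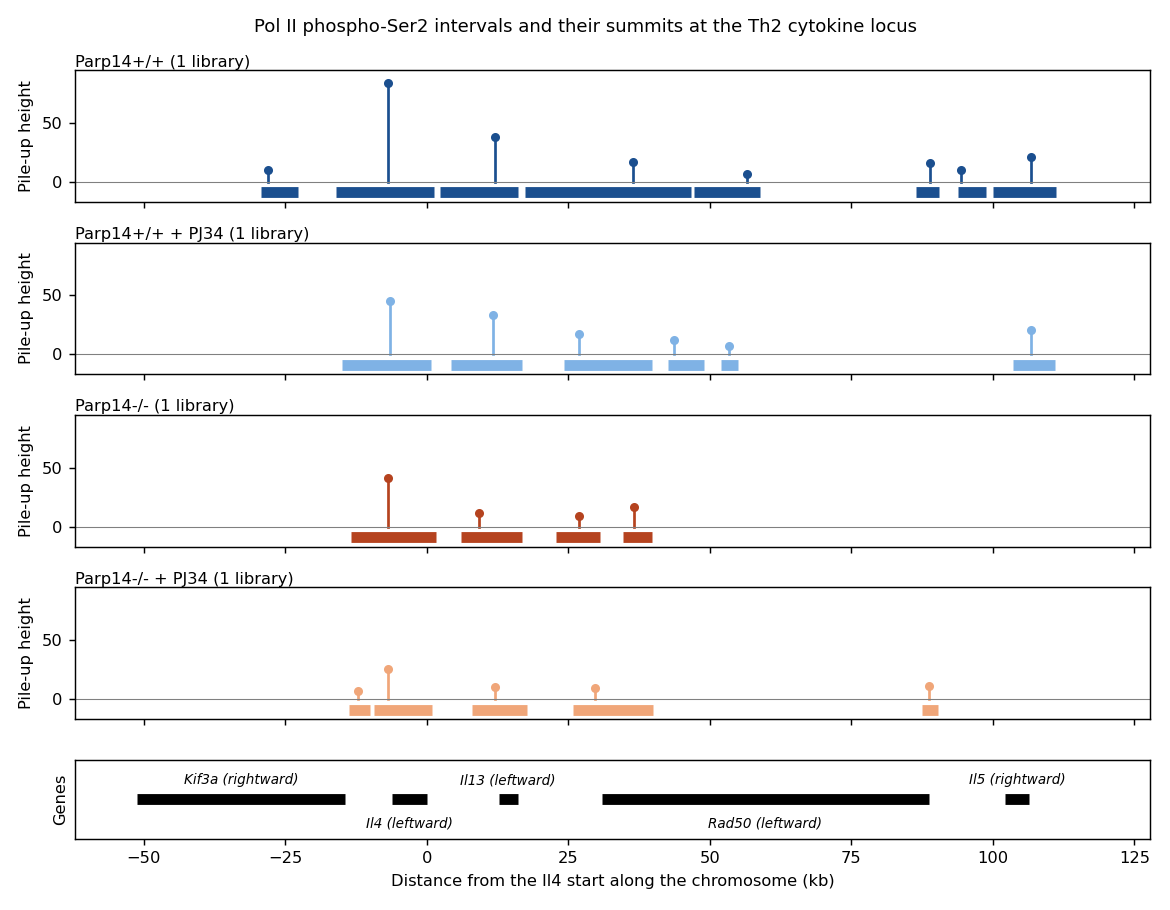
Intervals (thick bars) and their highest points (stems) at the Th2 cytokine locus in each of the 4 libraries, by distance in kb from the *Il4* start along the chromosome, with the height of the pile-up on the vertical axis and the 5 genes drawn below. The *Il4* summit stands at 84 in *Parp14*+/+ and 26 in *Parp14*-/- + PJ34, and the *Il5* interval is seen only in the upper 2 panels.

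When intervals of all libraries of the table, 8 in number, were merged by the authors, the stretch held 6 active regions, and the value of a gene is the mean height over the active regions that the table assigns to it, which need not touch it. The region at *Il4* (17.7 kb, chr11:53416051-53433750) also reaches into the 3′ end of *Kif3a*. The region from *Il13* to the middle of *Rad50* (56.6 kb, chr11:53434501-53491050) counts for *Il13* and *Rad50* and also for *Il4*, although it begins upstream of the *Il4* start. The other regions were a small one within *Kif3a*, one at the *Rad50* start, one between *Rad50* and *Il5* that was called in *Parp14*+/+ alone at a height of 10, and one at *Il5* (11.1 kb, chr11:53532151-53543250). The gene values of *Kif3a*, *Il4*, *Il13* and *Rad50* are therefore not separate measurements, and *Il5* alone had a region of its own. All coordinates are of mm9 and were matched to the same assembly, NCBIM37, with GENCODE vM1 genes.

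*Il4* carried the highest signal of the locus. Its region reached heights of 84, 45, 41 and 26. *Parp14*+/+ was the highest library and *Parp14*-/- + PJ34 the lowest, with *Parp14*+/+ + PJ34 and *Parp14*-/- close together between them. *Parp14*+/+ exceeded *Parp14*-/- 2.05-fold (1.39 to 3.05), and *Parp14*+/+ + PJ34 exceeded *Parp14*-/- + PJ34 1.73-fold (1.05 to 2.92). Averaged with the region of *Il13*, the gene value of *Il4* (gene ID 16189, minus strand, chr11:53425970-53432167) was 61, 39, 29 and 18, the 89th highest of 11606 genes in *Parp14*+/+ and the 1259th in *Parp14*-/- + PJ34. The whole gene lay under an interval in every library, so intervals alone would not separate the conditions.

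The summit at *Il4* lay past the 3′ end of the gene in all 4 libraries, by 690, 263, 690 and 658 bp, and was at the same base in *Parp14*+/+ and *Parp14*-/-. GENCODE places it in an intron of a longer *Il4* transcript. *Il13* and *Il5* had summits of the same kind in *Parp14*+/+, 634 and 307 bp past their ends. Of 6153 genes with an interval in that library, 11.2% had their highest summit within 1000 bp past the end and 17.7% within 500 bp of the start. The sequences under these 3 summits in *Parp14*+/+, shown because they mark where elongating polymerase was densest, are the summit base and 50 bases on each side, plus strand, at chr11:53425230-53425330, chr11:53444142-53444242 and chr11:53538862-53538962.
*Il4* summit: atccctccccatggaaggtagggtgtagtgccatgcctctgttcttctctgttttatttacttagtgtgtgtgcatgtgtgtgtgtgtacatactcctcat
*Il13* summit: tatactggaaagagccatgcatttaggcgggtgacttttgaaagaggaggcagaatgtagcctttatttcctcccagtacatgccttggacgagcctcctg
*Il5* summit: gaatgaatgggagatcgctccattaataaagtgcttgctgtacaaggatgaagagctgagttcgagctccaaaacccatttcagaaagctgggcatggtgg
A GATA word here is GATA after A or T and before A or G, so that AGATAA is such a word, on either strand. None of these summits holds one, while 15.9% of 11692 such windows in *Parp14*+/+ do.

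*Il13* (gene ID 16163, minus strand, chr11:53444826-53448204) had heights of 38, 33, 17 and 10. *Parp14*+/+ was above *Parp14*-/- by 2.24-fold (1.23 to 4.22) in the untreated pair and by 3.30-fold (1.59 to 7.51) in the treated pair. The value of 17 did not come from *Il13* itself. In *Parp14*-/- the highest point of the shared region lay at chr11:53468832, in an intron of *Rad50*, while the interval that covers *Il13* peaked at 12, at 3370 bp past the end of the gene. Set against the 38 of *Parp14*+/+, the *Il13* interval thus differed more than the tabulated ratio. Like *Il4*, *Il13* was wholly covered by an interval in each library.

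*Il5* (gene ID 16191, plus strand, chr11:53534296-53538605) showed the widest gap between the genotypes. Its heights were 21 and 21 in the *Parp14*+/+ libraries, without and with PJ34, against 4 and 6 in *Parp14*-/-. The ratio was 5.25 (1.77 to 21.0) untreated, the 10th highest of 11535 genes, and 3.50 (1.37 to 10.6) with PJ34. An interval was called at *Il5* in both *Parp14*+/+ libraries and in neither *Parp14*-/- library, a pattern that 9.97% of the 6116 genes with an interval in both *Parp14*+/+ libraries shared. Genes with 1 active region and no interval had a median height of 6 in *Parp14*-/- (5th to 95th percentile 2 to 13), so 4 and 6 lay within the range of regions without a call. The interval covered 100% of the gene in *Parp14*+/+ and 66.2% in *Parp14*+/+ + PJ34, where the start of the gene was left out although the height was equal.

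**Figure D2:**
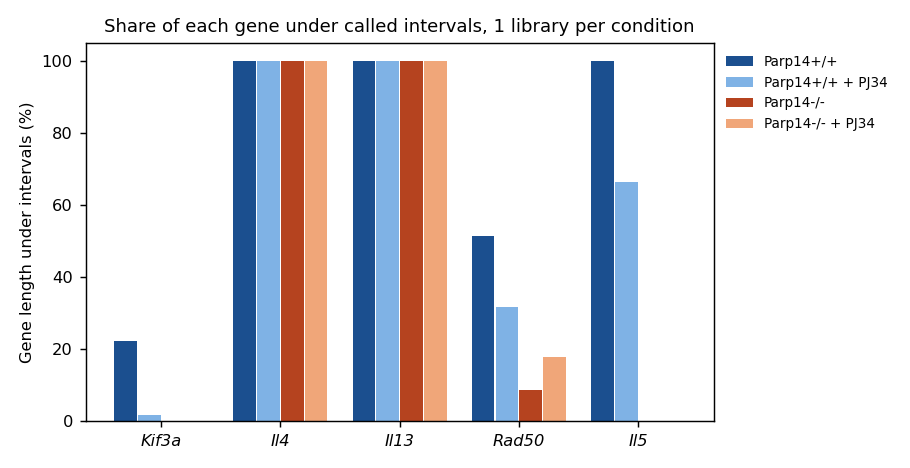
Share of the length of each of the 5 genes under called intervals, in percent, with 1 bar per library. *Il4* and *Il13* are at 100% in all 4 libraries, while *Kif3a* and *Il5* are at 0% in both *Parp14*-/- libraries.

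The promoters of the cytokine genes are shown because GATA3 and STAT6 act on them. They are the 250 bases before each start in mm9, read 5′ to 3′ on the strand of the gene, at chr11:53432168-53432417 for *Il4*, chr11:53448205-53448454 for *Il13* and chr11:53534046-53534295 for *Il5*. With the 50 bases that follow the start, all 300 bases were equal to the RefSeq promoter (GRCm38.p6) for each gene. Capitals mark GATA words and stretches with TTC and GAA spaced by 3 or 4 bases, the spacing that STAT dimers read.
*Il4* promoter: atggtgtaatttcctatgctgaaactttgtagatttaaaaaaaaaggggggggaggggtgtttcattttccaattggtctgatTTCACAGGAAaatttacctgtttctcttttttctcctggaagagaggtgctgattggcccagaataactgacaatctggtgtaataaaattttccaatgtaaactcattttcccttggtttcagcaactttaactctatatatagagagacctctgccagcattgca
*Il13* promoter: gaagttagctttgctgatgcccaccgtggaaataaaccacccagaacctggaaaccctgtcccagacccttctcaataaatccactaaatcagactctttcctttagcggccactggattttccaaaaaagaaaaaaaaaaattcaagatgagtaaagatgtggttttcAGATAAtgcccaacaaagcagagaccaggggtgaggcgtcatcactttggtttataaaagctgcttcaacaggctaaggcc
*Il5* promoter: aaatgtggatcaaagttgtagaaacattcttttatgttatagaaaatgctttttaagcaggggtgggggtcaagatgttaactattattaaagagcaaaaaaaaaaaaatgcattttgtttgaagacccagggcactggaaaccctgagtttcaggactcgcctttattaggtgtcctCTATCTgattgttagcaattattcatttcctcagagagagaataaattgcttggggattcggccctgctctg
*Il13* held the word AGATAA at position -81 and *Il5* the word AGATAG at position -72 on the opposite strand, where position 0 is the first base of the gene. *Il4* had its word TGATAA after the start, at position 14, and the only TTC and GAA pair, spaced by 4 bases, at position -167. A GATA word was present in 20.1% of 11604 promoters of this length and a TTC and GAA pair in 11.8%. From 1000 bases before to 100 after the start, the 3 genes held 2, 3 and 4 GATA words, in the order *Il4*, *Il13*, *Il5*, where 72.4% of promoters held at least 1. These matches are letters in a window and say nothing of binding.

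The study derived a pair of DNA words from its own gene lists, Motif 1 of 12 bases and Motif 3 of 10 bases. It also reported pull-down assays in which PARP-14 from transfected cells bound oligonucleotides with the *Il4* and *Il5* promoter sites. Binding was lower when the motifs were scrambled. In a reporter assay of the study, PARP-14 lowered expression from the *Il5* promoter. Here the motifs were searched with up to 2 and 1 mismatches on both strands. None lay in the 300 bases at the starts of *Il4*, *Il13* or *Il5*, where 3.7% of promoters hold Motif 1 and 1.72% hold Motif 3. In the longer window *Il4* had 1 Motif 3 site, at chr11:53432945-53432954, and *Il5* had 1 Motif 1 site, at chr11:53533442-53533453, against shares of 6.76% and 11.5% of promoters, and *Il13* had neither. Both are printed with 20 bases on each side, the site in capitals, in the direction of the motif, which is the minus strand of the chromosome.
*Il4* Motif 3 site: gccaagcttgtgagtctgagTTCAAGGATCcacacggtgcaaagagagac
*Il5* Motif 1 site: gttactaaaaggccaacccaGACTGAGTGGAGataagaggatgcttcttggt
Counted from 1 at the 5′ end of the motif, the *Il4* site differs by C2T and the *Il5* site by C1G, and their nearest bases lie at positions -778 and -843 from the gene starts. The *Il5* site shares 2 bases with a GATA word. The *Il4* site lay under an interval in 3 libraries, all but *Parp14*+/+ + PJ34, and the *Il5* site under an interval in *Parp14*+/+ alone. Within 10 kb on either side of each gene, the reach that the study scanned, there were more sites. *Il4* had 3 Motif 1 sites, with an exact match at chr11:53416889-53416900, and 1 Motif 3 site. *Il5* had 3 Motif 1 sites and *Il13* had 2, which also count for *Il4*, and neither gene had Motif 3. The share of all genes at this reach was not computed.

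*Rad50* (gene ID 19360, minus strand, chr11:53463072-53520799) had gene values of 27, 21, 12.5 and 10.5, in the same order as *Il4*, but its signal was of different kinds along its length. In the *Parp14*+/+ libraries the region shared with *Il13* entered these means at 38 and 33, from summits past the end of *Il13* and outside *Rad50*. By the highest interval summit that overlaps *Rad50*, the ratio of genotype was 1.00 untreated and 1.55 with PJ34. The 3′ part of *Rad50* holds the locus control region and lies in the shared region. Summits of height 17 were found there in introns of *Rad50* at chr11:53468624 in *Parp14*+/+ and at chr11:53468832 in *Parp14*-/-, so at this place the untreated genotypes had equal heights. The summit in *Parp14*+/+, shown because it lies in the part of *Rad50* that bears the locus control region, spans chr11:53468574-53468674 on the plus strand and holds no GATA word.
*Rad50* intron summit: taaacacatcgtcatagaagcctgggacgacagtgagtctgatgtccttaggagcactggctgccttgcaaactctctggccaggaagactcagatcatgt
In the treated pair the intervals that reach over this part peaked outside *Rad50*. Their summits were 17 in *Parp14*+/+ + PJ34, at 3968 bp past the end of the gene, and 9 in *Parp14*-/- + PJ34, at 1136 bp past it. They are thus not heights at the place of the untreated summits. The length covered differed as well. Intervals lay over 51.4%, 31.6%, 8.57% and 17.6% of *Rad50*, most in untreated *Parp14*+/+ and least in untreated *Parp14*-/-. In the upstream part of the gene 27.5 kb had no interval in any library. The region at the *Rad50* start had heights of 16, 9, 8 and 11, with an interval only in *Parp14*+/+ and *Parp14*-/- + PJ34, whose summits lay at positions -225 and -161 from the gene start. Its ratios were 2.00 (0.808 to 5.40) untreated and 0.818 (0.300 to 2.17) with PJ34, and both intervals include 1.

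*Kif3a* (gene ID 16568, plus strand, chr11:53380881-53417746) had gene values of 47, 25.5, 24 and 16.5, but most of that signal belonged to *Il4*. The region within *Kif3a* had heights of 10, 6, 7 and 7, and the rest of each mean came from the region at *Il4*, which overlaps the last part of *Kif3a*. Within *Kif3a* the ratio of *Parp14*+/+ to *Parp14*-/- was 1.43 (0.491 to 4.42) and that of the treated pair 0.857 (0.238 to 2.98). Intervals covered 22.1%, 1.75%, 0% and 0% of *Kif3a*, and the *Kif3a* start was under an interval in none.

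**Figure D3:**
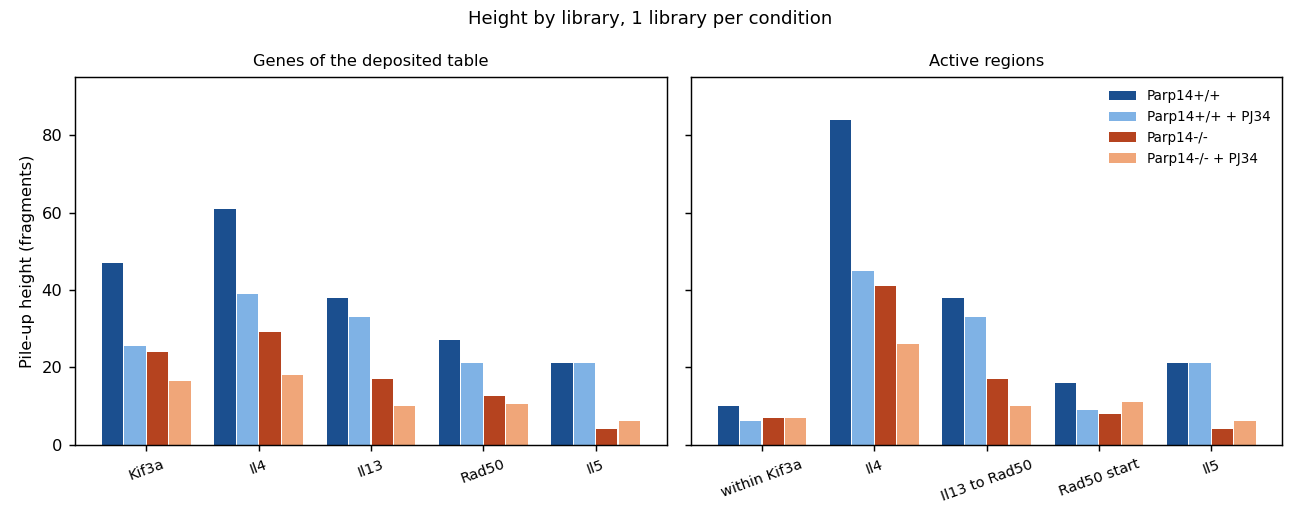
Height of the pile-up in each library for the 5 genes (left, means over active regions) and for 5 active regions of the locus (right), with 1 bar per library and an axis from 0. The *Kif3a* gene bars follow the *Il4* region, whereas the region within *Kif3a* stays between 6 and 10.

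Across genotype, all 5 genes were above the limit of 1.4 that the study set for a ratio of *Parp14*+/+ to *Parp14*-/-. In the untreated pair 14.1% of 11535 genes were above that limit, and 13.9% of the 1563 genes with a height of at least 20. The gene ratios were 1.96 (1.37 to 2.83) for *Kif3a*, 2.10 (1.53 to 2.93) for *Il4*, 2.24 (1.23 to 4.22) for *Il13*, 2.16 (1.32 to 3.62) for *Rad50* and 5.25 (1.77 to 21.0) for *Il5*, and each interval excluded 1. The treated pair, which has no library in common with the untreated pair, gave 1.55 (0.978 to 2.47), 2.17 (1.44 to 3.31), 3.30 (1.59 to 7.51), 2.00 (1.16 to 3.56) and 3.50 (1.37 to 10.6) in the same order of genes. Again all 5 were above 1.4, where 22.9% of all genes and 16.5% of those of at least 20 were, and the interval of *Kif3a* included 1. The median ratio of all genes in this pair was 1.13, and with libraries scaled to a median ratio of 1 *Kif3a* was at 1.38, so that 4 of 5 passed. In the treated pair 4 of the 6 T cell markers found were also above 1.4, with a median of 1.56, against 0 of 6 and a median of 1.04 in the untreated pair, and their part in the result was not tested. Over all genes 4.14% were above 1.4 in both pairs. Since the genes share regions, the regions give the plainer count. Of 5 active regions with a height in every library, those at *Il4*, from *Il13* to *Rad50* and at *Il5* had intervals that excluded 1 in both pairs. Those within *Kif3a* and at the *Rad50* start excluded 1 in neither pair. The share of all genes whose interval excludes 1 was not computed for any comparison. For the *Il4* region in the treated pair, 1.73 (1.05 to 2.92) without scaling, the lower bound was below the median ratio of 1.13.

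**Figure D4:**
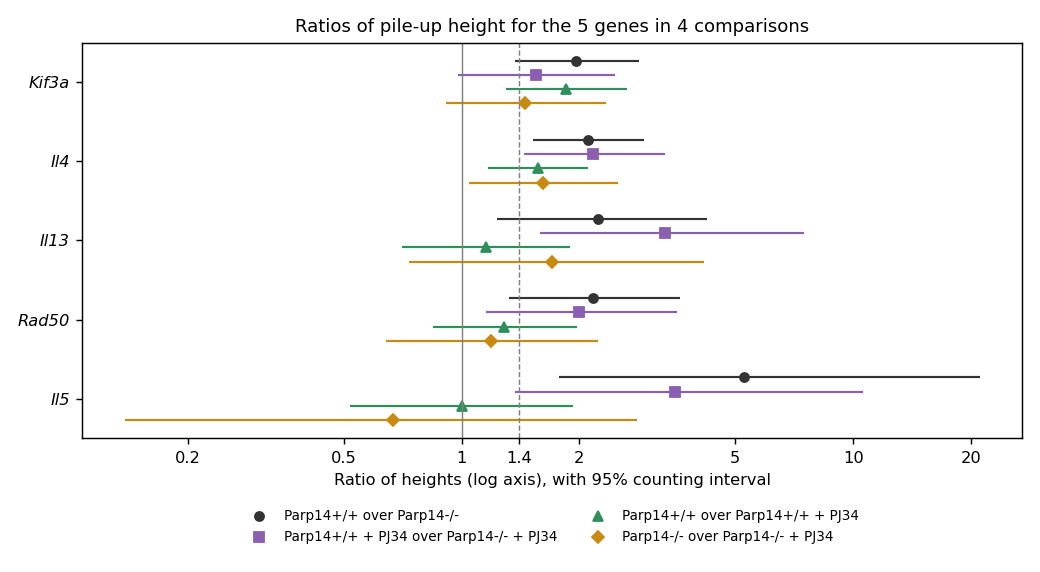
Ratio of heights (log axis) for the 5 genes in 4 comparisons, with 95% counting intervals as lines, a solid line at 1 and a dashed line at 1.4. All 5 genes lie above 1.4 in both comparisons of genotype, and *Il5* lies at 1.00 and 0.667 in the comparisons of PJ34.

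Between libraries with and without PJ34, the region at *Il4* in *Parp14*+/+ cells was the only active region of the 5 with an interval that excluded 1. The comparison of *Parp14*+/+ with *Parp14*+/+ + PJ34 uses the same *Parp14*+/+ library as the comparison of genotype, so the values stand side by side only. The region at *Il4* was 1.87-fold higher (1.28 to 2.74) without PJ34 in *Parp14*+/+ cells and 1.58-fold higher (0.942 to 2.69) in *Parp14*-/- cells. The gene value of *Il4*, which averages in the region of *Il13*, had ratios of 1.56 (1.17 to 2.11) and 1.61 (1.05 to 2.51), both with intervals that excluded 1. In untreated *Parp14*-/- this mean takes in the height of 17 from the *Rad50* intron. Between the *Parp14*-/- libraries the region at *Il4* alone had an interval that included 1. *Il13* had ratios of 1.15 (0.703 to 1.89) and 1.70 (0.735 to 4.15), and *Il5* of 1.00 (0.520 to 1.92) and 0.667 (0.138 to 2.81), none of which was beyond counting error. *Rad50* was at 1.29 (0.843 to 1.97) and 1.19 (0.640 to 2.24). *Kif3a* was at 1.84 (1.30 to 2.65) and 1.45 (0.915 to 2.34), through the region it shares with *Il4*. In *Parp14*+/+ cells 2 of 5 genes, *Il4* and *Kif3a*, were above 1.4, against 8.93% of all genes and 11.7% of those with at least 20. The study set that limit for genotype and used a narrower band for PJ34. In *Parp14*-/- cells 3 of 5 were, *Il4*, *Il13* and *Kif3a*, against 16.2% and 17.2%, and 2 of 5 after scaling to a median ratio of 1, which put *Kif3a* at 1.35. The place of *Il13* in both counts rests on the height of 17 in the *Rad50* intron. The intervals that cover *Il13* itself peaked at 12 in *Parp14*-/- and 10 in *Parp14*-/- + PJ34, a ratio below 1.4. The length under intervals in the 190 kb was 1.64-fold longer without PJ34 in *Parp14*+/+, against 1.19-fold over the genome, and had a ratio of 0.952 in *Parp14*-/-.

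The genes on either side of the locus had ratios of genotype between 0.597 and 1.14. On the *Kif3a* side, *Aff4* had 18.5, 19, 19 and 18, and *Leap2*, *Uqcrq* and *Gdf9*, which lie in 1 active region, had 23, 25, 24 and 26. *Hspa4*, a heat shock protein gene, had 21, 18, 23 and 26, with a ratio of 0.692 (0.358 to 1.31) in the treated pair, and *Zcchc10* had 5, 8, 6 and 7. On the *Il5* side, *Irf1*, a transcription factor of the interferon response, went the other way in the untreated pair, with heights of 86, 110, 144 and 119. Its ratio was 0.597 (0.452 to 0.785) untreated and 0.924 (0.707 to 1.21) with PJ34. The next gene, LOC622459, had 45.5, 57.5, 74 and 61, a mean that includes a second region beside the summit of *Irf1*. None of the 8 flanking genes was above 1.4 in either comparison of genotype. Of all genes, 14.1% were above that limit in the untreated pair and 22.9% in the treated pair. Because several of the 8 share a region, they are not separate measurements, and so small a count says little beside those shares.

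**Figure D5:**
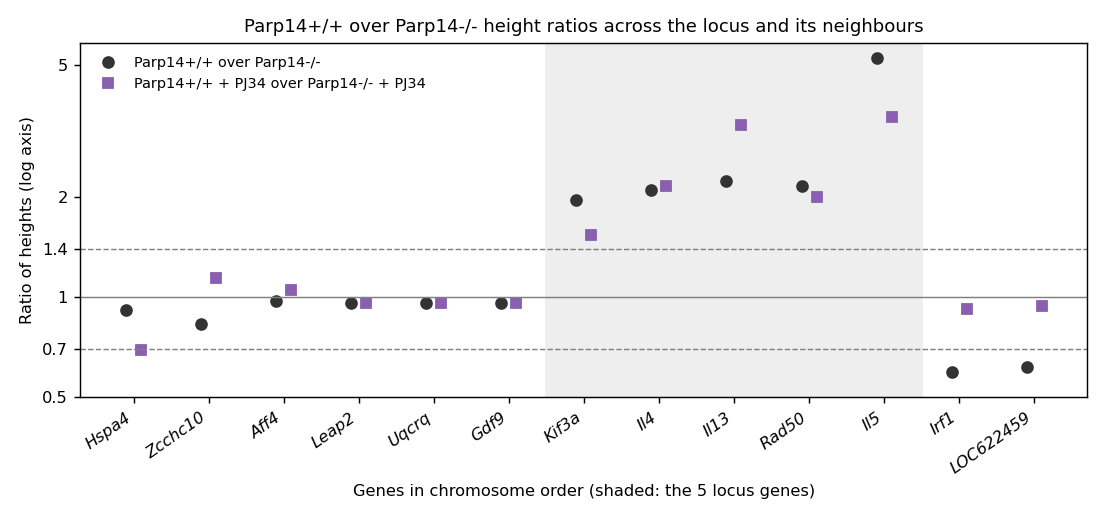
Ratio of heights (log axis) for *Parp14*+/+ over *Parp14*-/- (circles) and the same with PJ34 (squares) for 13 genes in chromosome order, the 5 locus genes shaded, with dashed lines at 0.7 and 1.4. The 5 shaded genes lie above 1.4 in both. *Irf1* and LOC622459 lie below 0.7 in the untreated pair and *Hspa4* in the treated pair.

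Of 35 listed regulators of the locus 31 were found. In the untreated pair 3 were above 1.4, against 14.1% of all genes, and 4 below 0.7, against 13.3%, with a median ratio of 1.06 against 1.00. In the treated pair 3 were above, against 22.9%, and 1 below, against 7.93%, with a median of 1.08 against 1.13. *Gata3*, the master factor of Th2 cells, had 60, 58, 45 and 43, with ratios of 1.33 (0.891 to 2.01) and 1.35 (0.894 to 2.05) for the untreated and the treated pair. *Stat6*, which carries the IL-4 signal, had 15, 12, 11 and 8.5, with ratios of 1.36 (0.761 to 2.48) and 1.41 (0.727 to 2.80). *Tbx21*, which opposes the Th2 programme, had 28, 22, 26 and 19, with ratios of 1.08 (0.609 to 1.91) and 1.16 (0.598 to 2.26). *Il2rg*, the common chain of the IL-2 and IL-4 receptors, was the regulator above 1.4 in both pairs, with 24, 19, 15 and 13 and ratios of 1.60 (0.806 to 3.28) and 1.46 (0.685 to 3.22), and none was below 0.7 in both. All these intervals include 1. The 2 regulators whose interval excluded 1 in the untreated pair, named after their values were seen, were higher in *Parp14*-/-: *Junb*, an AP-1 factor, had 65, 73, 125 and 90, with ratios of 0.520 (0.379 to 0.707) and 0.811 (0.587 to 1.12), and *Il2ra*, a chain of the IL-2 receptor, had 112, 138, 145 and 112, with ratios of 0.772 (0.598 to 0.995) and 1.23 (0.953 to 1.60). *Maf*, an activator of *Il4*, was listed but was not matched to a line of the gene table. Of other Th2 genes, *Ccr8*, a chemokine receptor of Th2 cells, had 32, 30, 28 and 24, and *Ccr4* had 17, 17, 17 and 13. *Il1rl1*, the receptor of IL-33, had 6, 8, 12 and 9, with ratios of 0.5 (0.154 to 1.44) and 0.889 (0.298 to 2.60), and both intervals include 1.

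By the distance between centred log2 heights over the 4 libraries, the genes most like each cytokine gene were sought among 1764 genes with at least 20 in a library. For *Il4* they were 2200001I15Rik (*Fam25c* in GENCODE) and LOC100041231, both at 32, 21, 17 and 12, *Snx17* and *Zfp513*, both at 39, 25, 23 and 15, and *Il21*, a T cell cytokine gene on chromosome 3, at 28, 24, 15 and 11. For *Il13* they were *Il4*, which shares its region, *Il21*, *Rad50*, and LOC100039590 and *Snapc2*, both at 23, 20, 15 and 9. For *Il5* they were *Islr* and *Stra6*, both at 23, 19, 8 and 9, *Gsn* and *Stom*, both at 22, 26, 11 and 11, and *Il13*. The distance to the nearest gene was 0.470 for *Il13* and 0.873 for *Il5*, and smaller for *Il4*. With 4 libraries, likeness is a description of these values.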

How the data were processed

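RNA polymerase II ChIP-Seq of 4 Th2 cell libraries, 1 per condition, was analysed in Python 3.11.15 with scipy 1.17.1 and matplotlib 3.10.9. The authors aligned reads with ELAND (mm9), dropped duplicates, brought the libraries to equal numbers of alignments and called intervals with SICER against Input, per the methods and labels. The deposited signal of a gene is the mean, over its active regions, of the pile-up height, and the deposited tracks give each interval with its summit. The gene table also holds 8 columns of values of other libraries, which were not used. Depth was equal by construction, and counting intervals cover counting error only.

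Ratios were taken without a pseudocount, at the main limits that the study set for genotype (1.4 and 0.7). The study also took in smaller changes of genotype at genes with high peaks and used a narrower band for PJ34. Neither of these rules was applied here. Listed genes were found by overlap of at least 50% of the joint span with GENCODE vM1 genes, since names on lines without an interval can differ from the coordinates. Genes were named by a rule: the 5 members, *Parp14*, the neighbours, the regulators beyond a limit in both pairs, with *Gata3*, *Stat6*, *Maf* and *Tbx21*, and the 5 genes most alike to each cytokine gene. Markers were given for the check of cell types, and the result of 1 listed marker is not reported here. Members and lists were chosen with earlier results of these data known.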

Additional observations from a re-analysis of the deposited data

Results flagged for a closer look

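In the small regions at the edges of the locus, the effect of genotype ran in opposite directions without and with PJ34. Within *Kif3a* the ratio of *Parp14*+/+ to *Parp14*-/- was 1.43, and 0.857 with PJ34. At the *Rad50* start it was 2.00, and 0.818 with PJ34. The same region had a ratio of untreated to PJ34-treated cells of 1.78 in *Parp14*+/+ and 0.727 in *Parp14*-/-. With 1 library per condition these differences were not tested, and the heights, 6 to 10 within *Kif3a* and 8 to 16 at the *Rad50* start, were low enough that the counting interval of each ratio includes 1.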

How the results depend on the processing

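The counts of genes above 1.4 depend on what stands for a gene. With the highest interval summit that overlaps the gene, 2 genes were above 1.4 untreated and 3 with PJ34, of the 3 that had an interval in both libraries. The gene that was not above 1.4 untreated was *Rad50*, at 1.00. With the length under intervals in place of height, 1 gene was above 1.4 in either comparison of genotype, and 0 for *Parp14*-/- over *Parp14*-/- + PJ34, each of 3 genes with a ratio. *Il4* and *Il13* are wholly covered in all libraries, and *Kif3a* and *Il5* gave no ratio because no interval covered them in either *Parp14*-/- library, against 8146 and 4310 bp in *Parp14*+/+. With a limit of 2, 3 genes passed in the PJ34-treated pair and 0 in each comparison of PJ34. Scaling to a median ratio of 1 and a pseudocount of 1 left all 20 gene ratios within their counting intervals, but scaling took *Kif3a* below 1.4 in the treated pair (1.38, so 4 genes passed in place of 5) and for *Parp14*-/- over *Parp14*-/- + PJ34 (1.35, so 2 in place of 3). With the 1 active region that holds most of the gene, chosen after seeing the data, *Kif3a* reversed to 0.857 in the treated pair, because the *Il4* region no longer enters. The length ratio of *Parp14*+/+ over *Parp14*-/- stayed between 1.90 and 2.83, and no alternative was run for the other comparisons of length. No paired analysis of replicates was possible because each condition had 1 library.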
